A study of Mus musculus with 7 samples.

Results

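The genes examined were 10 genes of the liver sinusoidal endothelium, namely Stab1, Stab2, Lyve1, Clec4g, Kdr, Pecam1, Tek, Gata4, Erg and Cdh5. A region of accessible chromatin belonged to a gene when it overlapped the gene body or the 10 kb on either side of it in the GENCODE M21 annotation. By that rule 59 of 55680 regions belonged to the 10 genes, and each of them belonged to a single gene of the list. Accessibility was measured by ATAC-seq, in which a transposase cuts exposed DNA and leaves sequencing adapters, in nuclei of whole liver from male C57BL/6N mice. The young group held 3 libraries from animals aged 3 months and the aged group 4 libraries from animals aged 18 months. The labels name no treatment or genetic change for either group. The sources disagree on the aged animals. By the deposited description there were 3, with different lobules of 1 animal used as separate samples, while the study itself treats every aged library as a biological replicate, and neither says which libraries would share an animal. Here the 4 libraries were kept as 4 samples, so the p-values below measure the spread between libraries, of which 2 may share an animal.

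Sinusoidal endothelial cells line the capillaries of the liver with a fenestrated wall that lets plasma reach the hepatocytes. They take up waste molecules from blood through scavenger receptors and lectins, and answer to VEGF and angiopoietins. Their identity rests on transcription factors of the GATA, ETS and SOX families. They are a minority of liver nuclei, most of which are hepatocyte nuclei. In bulk tissue, fewer endothelial nuclei and less accessible chromatin in each of them cannot be told apart.

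Of the 59 regions, 47 touched a gene body and 12 lay in the flanks. By position, 9 were at a promoter of their own gene (within 200 bp of an annotated transcript start), 9 covered an exon, 29 lay in introns, 4 upstream and 8 downstream. Stab2 had 13 regions, Pecam1 9, Gata4 8, Kdr 7, Erg 6, Stab1 5, Lyve1, Tek and Cdh5 3 each, and Clec4g 2. The windows were not free of other genes. In all, 6 regions also lay at the promoter of another gene, 1 at Smim4 and 2 at Nt5dc2 beside Stab1, 1 at Gm16271 inside Stab2, 1 at Rnf141 beside Lyve1 and 1 at Neil2 beside Gata4. Some of the others lay within the body of another gene, among them those upstream of Stab1 (Nisch), Stab2 (Gm16271) and Cdh5 (Gm29682).

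The main annotated start of the gene was accessible in 5 of the 10. Clec4g, Kdr, Tek, Gata4 and Cdh5 had a region there. The nearest region lay 4042 bp from the main start of Stab1, 4077 bp from that of Stab2, 7592 bp from that of Lyve1, 12962 bp from that of Pecam1 and 70762 bp from that of Erg. The promoter regions of Stab2 and Erg were at internal starts, that of a retained-intron transcript 129067 bp into Stab2 and those of shorter coding transcripts of Erg, of which the first begins 127245 bp into the gene. These starts are annotated, and ATAC-seq does not show whether they are transcribed.

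Promoter sequences are shown for the members with a region at the start in the sequence table, and for Stab2, whose main start had none. The table (RefSeq, GRCm38.p6) held entries for 6 of the 10 genes, and each run below is the 250 bases before the RefSeq start, 5′ to 3′ on the gene's strand. The RefSeq start of Stab2 lies inside the gene, 70 bp from the nearest GENCODE start, so its run spans the main GENCODE start at 87008025. Capitals mark 3 short motifs on either strand. The ETS motif was searched as CAGGAA, the core of many ETS sites. The letters of the GATA motif were AGATAA. Those searched for SOX factors were ACAAAG. None of the motifs contains another.
Kdr, minus strand, chr5:75978456-75978705: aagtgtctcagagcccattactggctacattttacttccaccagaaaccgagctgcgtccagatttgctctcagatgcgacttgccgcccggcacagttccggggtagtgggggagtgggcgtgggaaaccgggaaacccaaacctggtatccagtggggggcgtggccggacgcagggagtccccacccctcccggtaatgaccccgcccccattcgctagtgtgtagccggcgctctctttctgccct
Tek, plus strand, chr4:94739039-94739288: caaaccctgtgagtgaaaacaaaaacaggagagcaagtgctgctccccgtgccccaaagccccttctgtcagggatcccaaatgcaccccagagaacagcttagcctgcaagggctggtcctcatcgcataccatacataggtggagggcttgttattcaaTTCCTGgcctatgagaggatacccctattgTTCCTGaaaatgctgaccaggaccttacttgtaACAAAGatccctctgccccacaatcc
Clec4g, minus strand, chr8:3720652-3720901: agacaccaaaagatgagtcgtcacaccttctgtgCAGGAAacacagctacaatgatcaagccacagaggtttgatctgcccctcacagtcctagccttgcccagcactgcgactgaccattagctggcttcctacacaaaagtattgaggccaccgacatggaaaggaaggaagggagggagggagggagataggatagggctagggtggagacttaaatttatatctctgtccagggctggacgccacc
Erg, internal start, minus strand, chr16:95459349-95459598: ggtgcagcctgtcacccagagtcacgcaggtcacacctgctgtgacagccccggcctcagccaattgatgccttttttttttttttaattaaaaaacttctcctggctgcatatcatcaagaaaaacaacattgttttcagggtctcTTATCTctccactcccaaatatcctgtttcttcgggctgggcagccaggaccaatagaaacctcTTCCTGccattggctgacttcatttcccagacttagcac
Stab2, around the main start, without a region, minus strand, chr10:87007943-87008192: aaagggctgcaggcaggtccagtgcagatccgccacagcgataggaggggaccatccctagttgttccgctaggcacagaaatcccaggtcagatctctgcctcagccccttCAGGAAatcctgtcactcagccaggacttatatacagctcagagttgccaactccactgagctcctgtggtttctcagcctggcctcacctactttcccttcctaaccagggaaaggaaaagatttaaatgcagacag

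The ETS letters stood at 2 places before the Tek start and at 1 place in each of the Clec4g, Stab2 and internal Erg sequences. The Kdr sequence held none of the motifs. Over the 32851 promoter sequences of the table, 25.7% held the ETS letters, 9.99% the GATA letters and 16.5% the SOX letters. In the central 300 bases of the members' regions, 26 of 59 (44.1%) held the ETS letters against 32.2% of all regions, 13 (22.0%) the GATA letters against 13.4%, and 15 (25.4%) the SOX letters against 22.9%. By gene, the ETS letters were in 3 of 3 regions of Cdh5, in 4 of 7 of Kdr, in 5 of 13 of Stab2 and in neither region of Clec4g. A match of letters is a description and does not show that a factor binds there.

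The counts in regions summed to between 5709327 and 25461110 in the young and between 4474652 and 11717992 in the aged libraries. The median count in a member region was 187 in the library with the most, and the lowest count of any member region in any library was 2. As a share of all counts in regions, the windows of the 10 genes took 686.5, 658.3 and 655.4 CPM (counts scaled to the library total) in young replicates 1 to 3 and 596.9, 543.6, 615.9 and 694.6 in aged replicates 1 to 4. Aged replicate 4 thus had a share above all young libraries, while the other aged libraries were below them. With the TMM scaling used for all later values the sums were 659.9, 633.5 and 615.3 CPM in young and 614.5, 544.6, 643.4 and 742.4 CPM in aged libraries, which left aged replicate 3 within the young range and aged replicate 1 at its lower edge.

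Per kb of region, accessibility at these genes was moderate. From here on CPM values were scaled by TMM, which corrects library sizes for the bulk of regions. The median over the 59 regions was 8.92 CPM per kb, the 39.5th percentile of all regions, whose median was 10.8. Summed over each gene's regions and averaged over the 7 libraries, the level was 24.7 CPM per kb at Lyve1, 24.2 at Stab1, 20 at Gata4, 11.1 at Stab2, 9.70 at Pecam1, 7.97 at Cdh5, 7.67 at Kdr, 7.56 at Tek, 6.79 at Erg and 6.23 at Clec4g. The high sums of Lyve1 and Stab1 contained the regions at the promoters of Rnf141 (61.1 CPM per kb) and Smim4 (51.5 CPM per kb). The order among Cdh5, Kdr, Tek, Erg and Clec4g was not tested.

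Promoter regions of the list were weak for promoters. Over all 15422 promoter regions the median was 20.9 CPM per kb. Strongest here means largest in mean log2 CPM, whatever the length of the region. The strongest promoter region of Gata4 had 34.5 CPM per kb (76.9th percentile of promoter regions) and that of Stab2 13.1 (30.4th percentile). Cdh5 followed with 8.58 (17.4th), Tek with 7.63 (14.5th), Clec4g with 6.08 (8.29th), Kdr with 5.59 (6.59th) and Erg with 5.47 (6.15th). Per kb, the shorter regions at the main starts of Cdh5 (10.4 CPM per kb, 22.8th percentile) and Clec4g (7.05 CPM per kb, 12.2th percentile) stood higher than those at their internal starts. The 10 hepatocyte genes compared beside them, among them Alb, which encodes albumin, had a median of 26.2 CPM per kb. The median was 7.63 for the list itself and 7.38 for other endothelial genes. For markers of Kupffer cells and macrophages, stellate cells, cholangiocytes and lymphocytes it was 5.62, 6.59, 5.44 and 9.6. Those rested on 2, 6, 3 and 1 promoter regions. GATA4 is also made by hepatic stellate cells and other liver cells, so its promoter need not stand for endothelium.

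**Figure D1:**
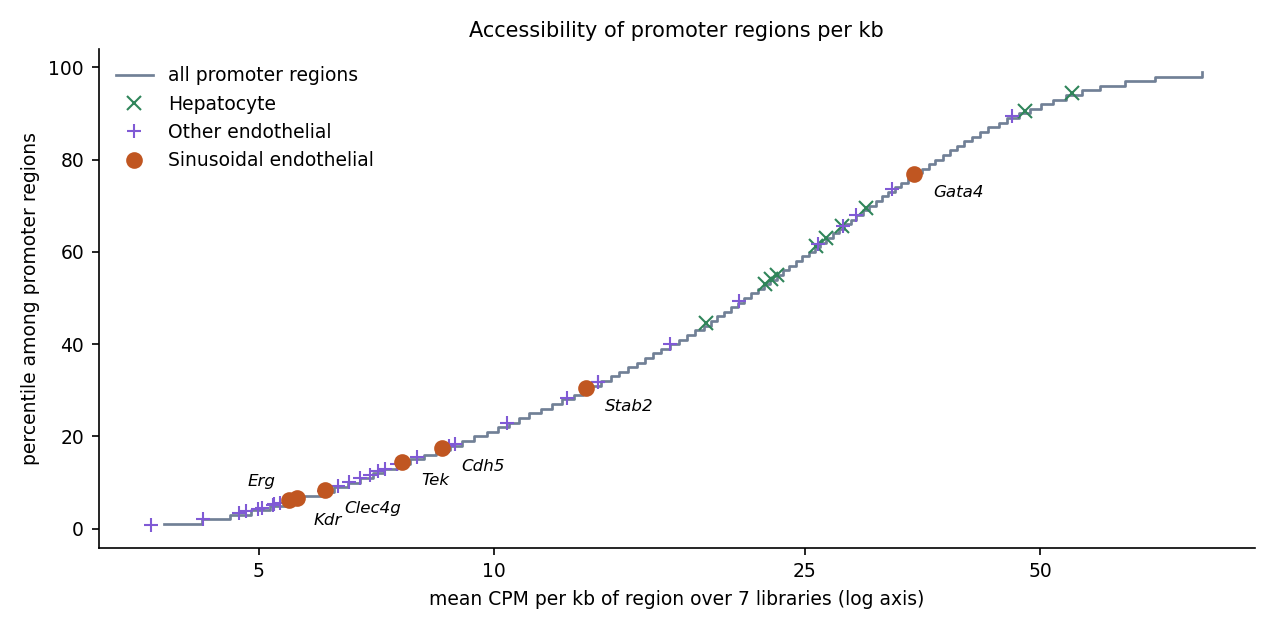
Mean accessibility per kb of promoter regions over 7 libraries (horizontal axis, logarithmic, CPM per kb) against the percentile among all 15422 promoter regions (vertical axis), with the strongest promoter region of each sinusoidal endothelial gene (circles), other endothelial gene (plus signs) and hepatocyte gene (crosses). All sinusoidal endothelial genes with a promoter region except Gata4 lie at or below 13.1 CPM per kb, left of every hepatocyte gene.

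Few of these regions passed the test for a difference between the ages. With edgeR's quasi-likelihood test and Benjamini-Hochberg adjustment over all 55680 regions, 1 of 59 regions was less accessible in aged liver at an adjusted p under 0.05, where 3.3% of all regions were, and 0 were more accessible, where 2.44% of all regions were. The share of members called did not stand above that background. Before adjustment 11 of the 59 had a p under 0.05 (18.6%, against 24.6% of all regions), 8 of them lower and 3 higher in aged liver. DESeq2 called 1 region lower, where it called 3.47% of all regions, and 1 higher, where it called 4.96%. Scaling moved the split of calls over all regions, since with total counts in place of TMM 5.26% were lower and 0.975% higher and the median of all regions was -0.153.

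The log2 fold changes of aged over young liver ran from -1.50 to 0.75. In 39 of 59 regions (66.1%) the fold change was below 0, against 53.4% of all regions, and the median was -0.17 against -0.035. Away from promoters the median of all regions was -0.091, and at promoters it was 0.094. Leaving out the 6 regions at other genes' promoters gave 35 of 53 below 0 and the same median of -0.17. Every aged library was below every young one in 5 regions (8.47%, against 11.6% of all regions) and above in 2 (3.39%, against 10.2%).

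**Figure D2:**
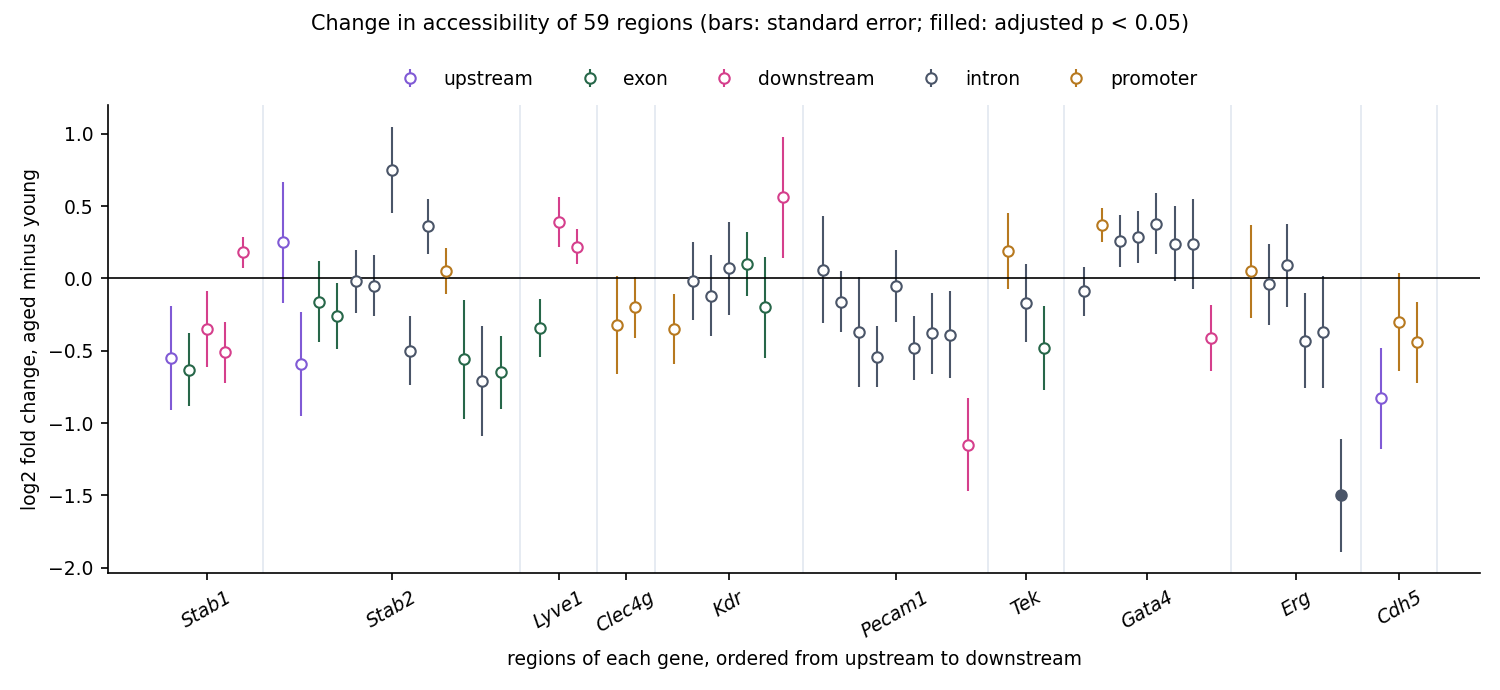
Log2 fold change of aged over young liver (vertical axis, bars are standard errors from edgeR) for the 59 regions, grouped by gene and ordered from upstream to downstream, with the position of the region in colour. The single filled point is the intron region of Erg at -1.50, and 39 points lie below 0.

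Levels at these genes differed among the aged libraries. Aged replicate 4 was the highest of the aged libraries in 37 of 59 regions (62.7%), against 29.9% of all regions. In 15 regions (25.4%, against 16.9% of all regions) aged replicates 1 to 3 were all below the young libraries. Aged replicate 4 was not below them in 10 of these 15, and in 5 it was above every young library. All aged libraries, replicate 4 included, were below the young ones in 8.47% of the member regions, against 11.6% of all regions. For the 5 no share over all regions was computed. Relative to the young mean, the median log2 level over the 59 regions was 0.12, 0.02 and -0.17 in young replicates 1 to 3 and -0.41, -0.34, -0.05 and 0.12 in aged replicates 1 to 4. Aged replicate 3 was thus nearer to aged replicate 4 than to aged replicates 1 and 2. Dixon's test for an outlier, which with 4 libraries flags only a gap that is most of their range, flagged none of 24 values, the 10 gene sums and 14 regions that the sums contain.

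Without aged replicate 4, 7 of the 59 regions were less accessible in aged liver (11.9%, against 4.67% of all regions in the same fit), 0 were more accessible, 44 were below 0 and the median was -0.32 against -0.025 over all regions. The library left out here was the highest at these genes, so that its omission by itself lowers the aged mean there. Leaving out any other library gave 0 regions less accessible, or 1 without young replicate 3, where 0.239% to 2.86% of all regions were. The 7 regions belonged to 5 genes. They were the exon region of Stab1 at 31160102 on chromosome 14 (log2 fold change -0.89, adjusted p = 0.0292 from edgeR) and the region upstream of it at 31172683 (-1.07, adjusted p = 0.0352 from edgeR), 2 regions of Stab2 at 86872060 and 86889500 on chromosome 10 (-1.30 and -0.79), the region downstream of Pecam1 (-1.25), the intron region of Erg (-1.95) and the region upstream of Cdh5 (-1.26). Which library better represents aged liver cannot be told from these data. Below, the fold change without aged replicate 4 is added for each member sum or region described that its omission moved by more than 1.5 times. Omitting other libraries moved some regions by more than 1.5 times the other way. Such values are added for the strongest promoter regions of Clec4g, Kdr, Tek and Cdh5.

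**Figure D3:**
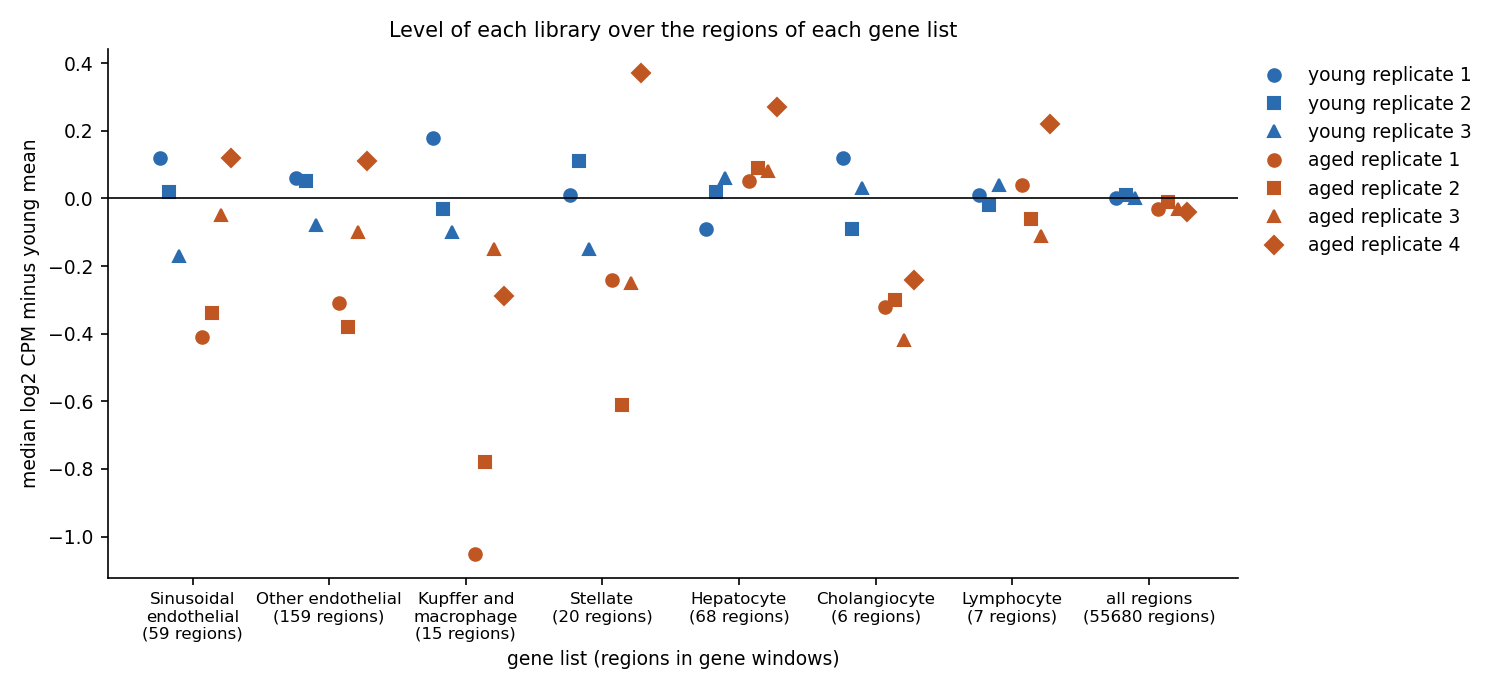
Median log2 CPM of each library minus the young mean (vertical axis) over the regions in the gene windows of the 10 sinusoidal endothelial genes, of other gene lists and over all regions (horizontal axis), with colour for age and shape for replicate. Over the sinusoidal endothelial regions aged replicates 1 and 2 lie at -0.41 and -0.34 and aged replicate 4 at 0.12, and over all regions every library lies near 0.

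The scavenger receptors Stab1 and Stab2, which clear waste molecules such as modified lipoproteins from blood, had overlapping levels at the 2 ages. Summed over its 5 regions, Stab1 had 102, 87.6 and 89.0 CPM in young and 79.7, 69.8, 87.3 and 103 CPM in aged replicates 1 to 4. Aged replicates 1 to 3 were below the young libraries and aged replicate 4 above them, and the log2 fold change (with its standard error, SE) was -0.12 (SE 0.12, edgeR adjusted p = 0.499 over 16231 gene sums), or -0.23 without aged replicate 4. The sum holds 3 regions at the promoters of neighbours. Its 2 other regions had fold changes of -0.63 and -0.55 (-1.07 without aged replicate 4 for the latter). The latter lies upstream of Stab1, inside the gene Nisch.

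The stronger of these, the exon region of Stab1 (chr14:31160102-31160886), had 18.1, 12.2 and 13.3 CPM in young and 7.56, 6.28, 9.81 and 13.6 CPM in aged libraries. Aged replicates 1 to 3 were below the young libraries and aged replicate 4 lay within their range. This region had a log2 fold change of -0.63 (SE 0.25, edgeR adjusted p = 0.132) and passed the threshold when aged replicate 4 was left out (-0.89).

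Stab2 summed over 13 regions to 143, 142 and 115 CPM in young and 116, 99, 126 and 182 CPM in aged libraries, a log2 fold change of -0.03 (SE 0.17, edgeR adjusted p = 0.918). Without aged replicate 4 it was -0.23 (adjusted p = 0.181 from edgeR). None of its 13 regions passed the test. Their fold changes were below 0 in 9 and above 0 in 4, from -0.71 in an intron at 86862446 (-1.12 without aged replicate 4) to 0.75 in another intron at 86923588 on chromosome 10. The latter had 8.52, 15.6 and 7.07 CPM in young and 21.7, 9.61, 15.9 and 24.4 CPM in aged libraries, with an adjusted p of 0.141 from edgeR. Aged replicate 2 fell inside the young range there.

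The region at the internal Stab2 start (chr10:86878613-86881929), 3317 bp long and the strongest of the gene by CPM, had 43.4, 41.5 and 42.9 CPM in young and 37.1, 33.5, 47.4 and 58.4 CPM in aged libraries. The young libraries lay close together and the aged ones on both sides of them, with means of 42.6 ± 0.972 (SD, n = 3) and 44.1 ± 11.2 CPM (SD, n = 4). The log2 fold change was 0.05 (SE 0.16, edgeR adjusted p = 0.879), and it was -0.12 without aged replicate 4. In 1 intron region of Stab2, at 86886413, every aged library (9.16 to 10.5 CPM) was above every young one (6.92 to 7.89 CPM), with an adjusted p of 0.261 from edgeR.

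Lyve1, a hyaluronan receptor shared with lymphatic endothelium, had 3 regions, and only 1 touched the gene. That region (chr7:110853770-110855647) had 10.1, 12.8 and 14.6 CPM in young and 8.52, 11.4, 8.40 and 10.9 CPM in aged libraries. The aged levels overlapped the young ones, with a log2 fold change of -0.34 (SE 0.20, edgeR adjusted p = 0.307). The strongest region outside other promoters lay downstream of the gene at 110848312 and went the other way, with 13.6, 16.1 and 19.6 CPM in young and 24.9, 19.0, 20.8 and 20.4 CPM in aged libraries. Its log2 fold change was 0.39 (SE 0.17, edgeR adjusted p = 0.161). The Lyve1 sum, 0.18 (SE 0.10, edgeR adjusted p = 0.238), thus rested on regions outside the gene.

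Clec4g, a lectin of the sinusoidal surface, had promoter regions at its main start and inside the gene. The inner region (chr8:3717327-3719173) had 13.0, 13.4 and 9.70 CPM in young and 8.61, 8.63, 11.4 and 13.9 CPM in aged libraries. Aged replicates 1 and 2 were below the young range and aged replicate 4 above it. The fold change was -0.20 on the log2 scale (SE 0.21, edgeR adjusted p = 0.609), and -0.36 without aged replicate 4. With any other library left out it ran from -0.3 (without young replicate 3) to -0.09 (without aged replicate 1). The region at the main start, of 1.37 to 3.17 CPM in all libraries, differed by -0.32 on the log2 scale (SE 0.34), and the Clec4g sum by -0.22 (SE 0.19, edgeR adjusted p = 0.437). Without aged replicate 4 these were -0.19 and -0.34.

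Among the growth factor receptors, Kdr, the main signalling receptor for VEGF-A, had a promoter region (chr5:75977998-75979348, around the sequence shown above) with 8.98, 9.75 and 6.74 CPM in young and 5.01, 6.28, 7.70 and 8.40 CPM in aged libraries. Aged replicates 1 and 2 were below the young range and the others inside it, with a log2 fold change of -0.35 (SE 0.24, edgeR adjusted p = 0.384). With 1 library left out it ran from -0.49 (without aged replicate 4) to -0.2 (without aged replicate 1). The strongest Kdr region, over an exon at 75961835, had a log2 fold change of 0.10 (SE 0.22), which was -0.10 without aged replicate 4. The Kdr sum was 47.6, 44.6 and 33.9 CPM in young and 30.2, 36.7, 43.0 and 57.4 CPM in aged libraries, a log2 fold change of -0.02 (SE 0.19, edgeR adjusted p = 0.943). Without aged replicate 4 it was -0.23 (adjusted p = 0.295 from edgeR).

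Tek, the angiopoietin receptor, had a promoter region (chr4:94739080-94739827) with 5.46, 5.56 and 4.6 CPM in young and 4.13, 5.69, 7.0 and 7.51 CPM in aged libraries. Of the aged libraries 3 were above the young ones and aged replicate 1 was below, and the log2 fold change was 0.19 (SE 0.26, edgeR adjusted p = 0.696), or 0.04 without aged replicate 4. Without aged replicate 1 it was 0.36. The intron region at 94745927 (-0.17, SE 0.27) and the exon region at 94829911 (-0.48, SE 0.29) did not pass the test either. The Tek sum differed by -0.10 (SE 0.20, edgeR adjusted p = 0.760), or by -0.16 without aged replicate 4.

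**Figure D4:**
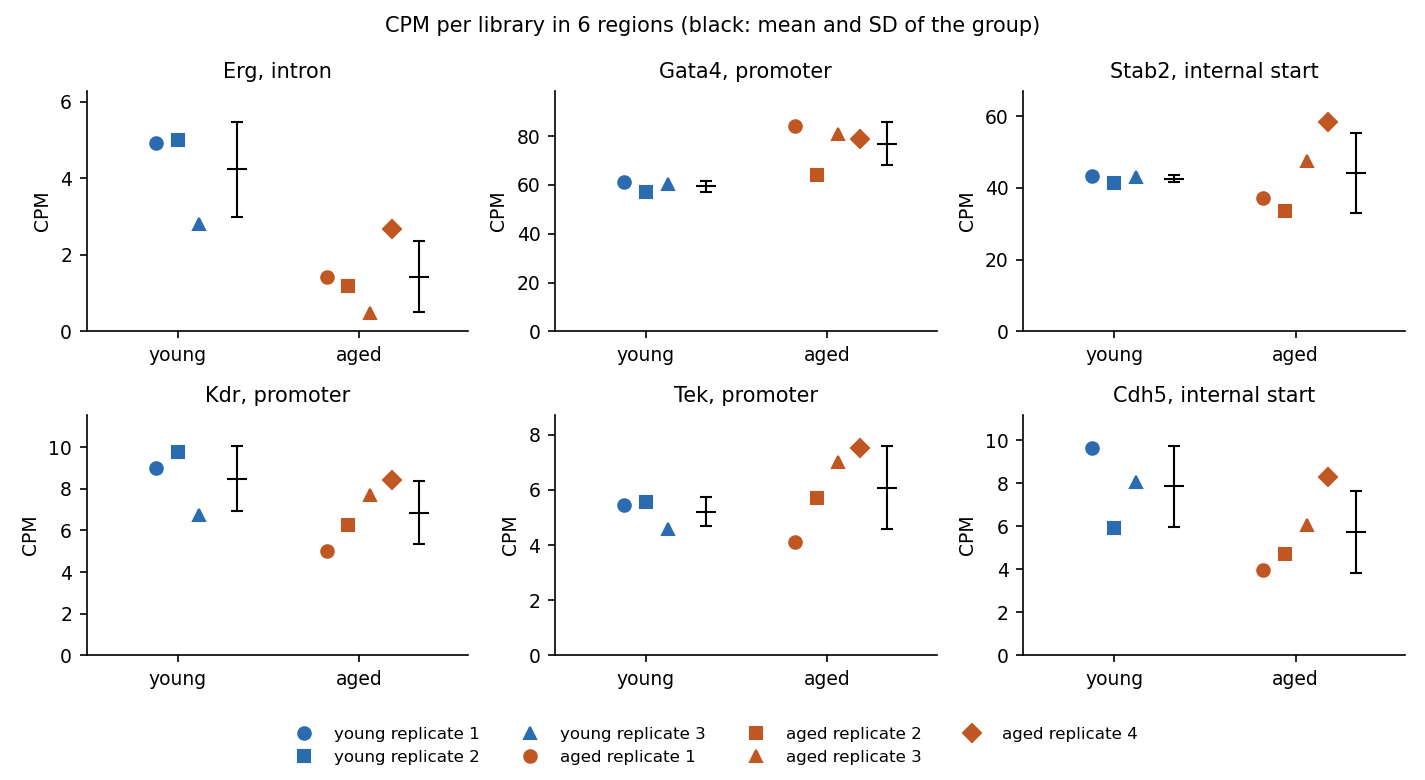
CPM of each library (vertical axes, from 0) in 6 regions of Erg, Gata4, Stab2, Kdr, Tek and Cdh5, by age, with the group mean and SD in black. The groups do not overlap in the Erg intron (2.80 CPM or more against 2.67 or less) or at the Gata4 promoter (61.2 or less against 63.9 or more), and they overlap in the other 4 regions.

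At the junction genes the fold changes were mostly below 0. Pecam1, an adhesion molecule of endothelial contacts, had 9 regions, of which 8 were below 0, and summed to 73.0, 77.2 and 70.0 CPM in young and 52.6, 59, 58.1 and 67.7 CPM in aged libraries. Every aged library was below every young one. The log2 fold change was -0.31 (SE 0.10), with an adjusted p of 0.0641 from edgeR (0.00871 before adjustment). None of the 9 regions was at an annotated start, and the nearest to the gene's outermost start was an intron region of 1.48 to 3.95 CPM with a log2 fold change of 0.06 (0.22 without aged replicate 4).

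The Pecam1 region with the largest difference lay downstream of the gene (chr11:106648511-106649005), with 2.87, 3.44 and 4.6 CPM in young and 1.23, 1.96, 1.40 and 1.91 CPM in aged libraries. The groups did not overlap, and the log2 fold change of -1.15 (SE 0.32) had an adjusted p of 0.0515 from edgeR, short of the threshold. It rested on 6 to 15 reads in each aged library. In 2 introns of Pecam1, at 106667916 and 106677935, the aged libraries were also all below the young ones, with log2 fold changes of -0.48 and -0.54 (adjusted p = 0.189 and 0.128 from edgeR). The strongest region, at 106674509, did not separate the ages (-0.05, SE 0.25, and -0.32 without aged replicate 4).

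Cdh5 encodes VE-cadherin, the cadherin of endothelial junctions. Its 3 regions were all below 0, from -0.83 to -0.30, and the sum was 20.2, 13.3 and 14 CPM in young and 8.35, 8.43, 11.9 and 16.5 CPM in aged libraries. Aged replicates 1 to 3 were below the young libraries and aged replicate 4 between them. On the log2 scale the sum differed by -0.48 (SE 0.25, edgeR adjusted p = 0.195), and by -0.75 without aged replicate 4.

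At the main Cdh5 start (chr8:104101475-104101839) the libraries had 6.11, 3.78 and 2.80 CPM in young and 2.99, 1.96, 4.2 and 4.71 CPM in aged samples, with a log2 fold change of -0.30 (SE 0.34, edgeR adjusted p = 0.620). The stronger region, at an internal start (chr8:104110641-104111416), had 9.63, 5.90 and 8.06 CPM in young and 3.95, 4.71, 6.07 and 8.27 CPM in aged libraries, a log2 fold change of -0.44 (SE 0.28, edgeR adjusted p = 0.358). Without aged replicate 4 the fold changes were -0.50 at the main start and -0.69 at the internal one. The young and aged levels overlapped at both. At the internal start the fold change was -0.25 without young replicate 1 and -0.26 without aged replicate 1.

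Of the transcription factors, neither Gata4 nor Erg had a sum that passed the test. At Gata4, which specifies sinusoidal endothelium during liver development, 6 of 8 regions were above 0, and the sum was 151, 140 and 162 CPM in young and 208, 155, 183 and 165 CPM in aged libraries. Aged replicate 2 lay within the young range. The sum differed by 0.24 on the log2 scale (SE 0.11, edgeR adjusted p = 0.151).

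The Gata4 promoter region (chr14:63244480-63246495), also the strongest of the gene, had 61.2, 57.0 and 60.3 CPM in young and 84.1, 63.9, 81.0 and 78.7 CPM in aged libraries. Every aged library was above every young one, with means of 59.5 ± 2.24 (SD, n = 3) and 76.9 ± 8.93 CPM (SD, n = 4). The difference was 0.37 on the log2 scale (SE 0.12), and the adjusted p of 0.0704 from edgeR missed the threshold. It passed under 6 of 22 other settings, among them DESeq2 (adjusted p = 0.0354) and limma (0.0451), with the lowest adjusted p at 0.0343. It did not pass under the other 16, and the fold change was 0.25 (edgeR adjusted p = 0.162) with total counts and 0.10 (edgeR adjusted p = 0.660) with offsets on mean abundance. It was the only promoter region of the list in which the ages did not overlap. Over all regions, at promoters or not, every aged library was above every young one in 10.2%.

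Erg, an ETS factor that maintains endothelial identity, held the region that passed the test (chr16:95364227-95364818), in an intron near the 3′ end of the gene. It had 4.91, 4.99 and 2.80 CPM in young and 1.41, 1.18, 0.467 and 2.67 CPM in aged libraries. The groups did not overlap, though young replicate 3 and aged replicate 4 were close. The means were 4.23 ± 1.24 (SD, n = 3) and 1.43 ± 0.920 CPM (SD, n = 4), and the log2 fold change was -1.50 (SE 0.39, edgeR adjusted p = 0.0407). The aged libraries held 16, 6, 2 and 21 reads there.

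This call was near the threshold. It was lost when young replicate 1 (adjusted p = 0.128 from edgeR), young replicate 2 (0.148) or aged replicate 1 (0.112), 2 (0.0658) or 3 (0.100) was left out, and was stronger without aged replicate 4 (log2 fold change -1.95, adjusted p = 0.0106 from edgeR). The direction held in every setting run, from -2.0 to -1.19. The central 300 bases of the region, shown because it was the single region called, held the GATA letters at 1 place, in capitals, and neither of the other motifs.
Erg intron, plus strand, chr16:95364373-95364672: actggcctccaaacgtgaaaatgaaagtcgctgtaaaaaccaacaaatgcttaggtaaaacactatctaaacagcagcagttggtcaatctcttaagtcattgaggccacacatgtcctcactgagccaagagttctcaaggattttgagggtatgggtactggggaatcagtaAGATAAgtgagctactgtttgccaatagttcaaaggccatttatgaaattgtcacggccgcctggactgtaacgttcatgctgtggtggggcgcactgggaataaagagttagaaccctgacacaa

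The other 5 Erg regions ranged from -0.43 to 0.09 (-0.93 to -0.24 without aged replicate 4) and none passed the test. The region at the internal start had 2.78, 3.06 and 2.96 CPM in young and 2.11, 2.35, 3.03 and 4.71 CPM in aged libraries, so that aged replicates 1 and 2 were below the young libraries, aged replicate 3 among them and aged replicate 4 above them. Its log2 fold change was 0.05 (SE 0.32, edgeR adjusted p = 0.943), and -0.28 without aged replicate 4. The Erg sum was 28, 27.8 and 25.7 CPM in young and 16.0, 17.7, 22.9 and 37.5 CPM in aged libraries, with 3 aged libraries below and aged replicate 4 above the young ones. On the log2 scale the Erg sum differed by -0.21 (SE 0.24, edgeR adjusted p = 0.561), and by -0.56 without aged replicate 4.

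**Figure D5:**
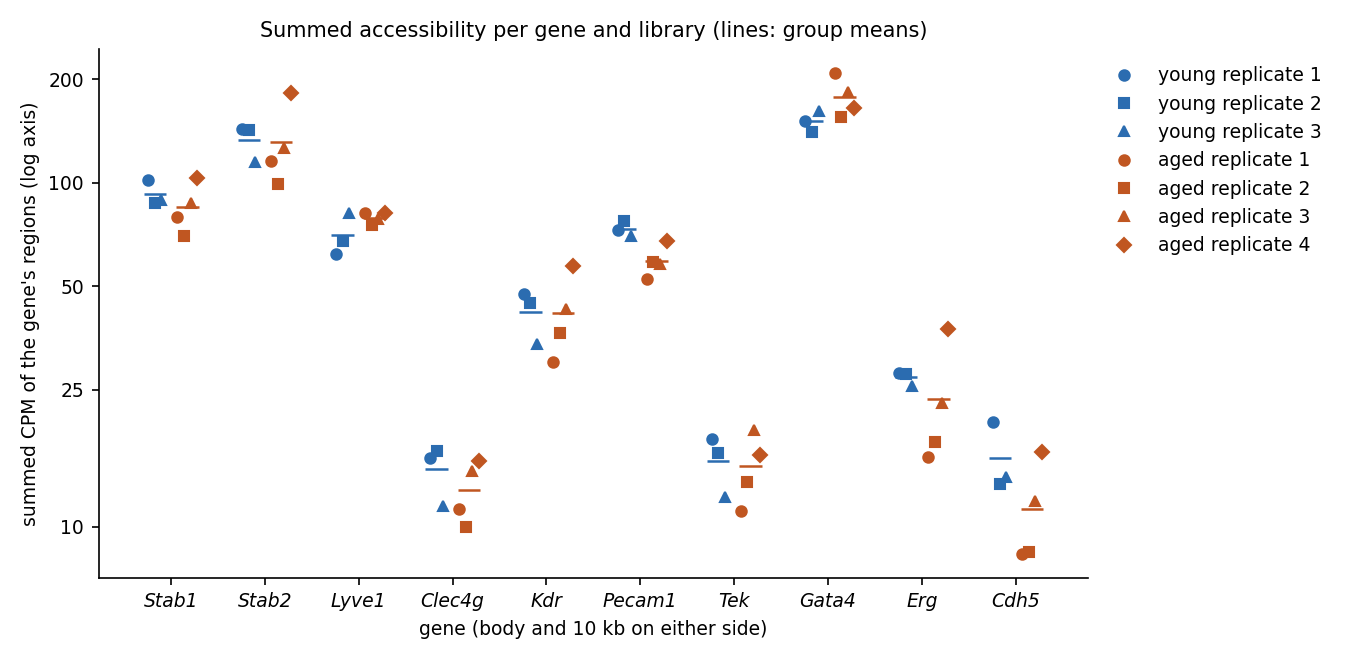
Summed CPM of the regions of each gene (vertical axis, logarithmic) in each library, with lines at the group means. The aged libraries lie below the young ones at Pecam1 (52.6 to 67.7 against 70.0 to 77.2), and at Stab1, Stab2, Kdr and Erg aged replicate 4 is the highest of all libraries.

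Over the 10 gene sums, 0 were less accessible in aged liver at an adjusted p under 0.05, where 3.27% of 16231 gene sums were, and 0 were more accessible, where 6.1% were. Before adjustment 2 of the 10, Pecam1 and Gata4, had a p under 0.05, against 32.8% of all sums. The log2 fold change was below 0 in 8 of 10 genes and above 0 at Lyve1 and Gata4, while 37.4% of all gene sums were below 0. The median was -0.11 against 0.081. Over all regions the median was 0.094 at promoters and -0.091 away from them. Of the 59 member regions, 9 were at a promoter of their own gene and 6 at another gene's. How far this mix of regions set the members' sums apart was not tested. Without aged replicate 4 the sums of Pecam1 (-0.38, adjusted p = 0.0345 from edgeR), Erg (-0.56, adjusted p = 0.0384) and Cdh5 (-0.75, adjusted p = 0.0470) were less accessible, 3 of 10 where 4.24% of all gene sums were.

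The strongest promoter region of each of 35 other endothelial genes was read beside those of the list. A promoter region was present for 32 of them, Gpr182, Emcn and Mecom having none. Of these 32 regions, 1 was less accessible in aged liver, where 2.06% of all promoter regions were, and 0 were more accessible, where 4.48% were. The one was Wnt9b, a Wnt ligand of central vein endothelium, with 5.55, 5.67 and 4.11 CPM in young and 2.2, 3.53, 2.57 and 1.91 CPM in aged libraries. All aged libraries were below the young ones (log2 fold change -1.07, SE 0.29, edgeR adjusted p = 0.0439). The median of the 32 was -0.20, and that of the 7 promoter regions of the sinusoidal list 0.05. These medians were -0.42 and -0.28 when aged replicate 4 was left out.

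In the windows of these 35 genes, 4 of 159 regions were less and 5 more accessible in aged liver, where 3.3% and 2.44% of all regions were. Apart from Wnt9b, these regions were named after their values were seen. The lower ones were 2 regions of Vwf, which encodes von Willebrand factor, both at -1.43, and a weaker promoter region of Eng, a TGF-beta co-receptor, at an internal start (-1.54). The higher ones were 3 regions in the window of Nrp1, a VEGF co-receptor (0.55 to 0.77), 1 beside Egfl7 (0.60) and 1 near Nos3 at the promoter of Abcb8 (0.48). The library levels of these 159 regions were -0.31, -0.38, -0.10 and 0.11 in aged replicates 1 to 4, so that replicates 1 and 2 were the lowest and replicate 4 the highest, as over the members. A high aged replicate 4 was not limited to endothelial genes. The levels were 0.05, 0.09, 0.08 and 0.27 at the hepatocyte genes and 0.04, -0.06, -0.11 and 0.22 at the lymphocyte genes. At the Kupffer cell and macrophage genes aged replicate 3 was the highest instead.

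Values at marker genes of other liver cell types are given beside those of the members. The 15 regions at the Kupffer cell and macrophage genes had a median of -0.61 in log2 fold change, and 12 lay below 0. Their library levels were -1.05, -0.78, -0.15 and -0.29 in aged replicates 1 to 4. Their summed level was 198 to 260 CPM in young and 200 to 246 CPM in aged libraries. Of the 9 genes, the defining markers Cd5l, Vsig4, Adgre1, Timd4 and Marco had no region, and the promoter regions of Clec4f and Spi1 did not pass the test. Of the 15 regions 1 was less accessible, where 3.3% of all regions were, in the window of Cd68 at the promoter of Sox15 (-1.25, edgeR adjusted p = 0.0230).

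The 20 regions at the stellate genes had a median of -0.15, with library levels of -0.24, -0.61, -0.25 and 0.37 in aged replicates 1 to 4 and a summed level of 82.5 to 94.4 CPM in young libraries and 59.6 to 76.8 CPM in aged replicates 1 to 3. In aged replicate 4 the summed level was above all young libraries. The promoters of the 10 hepatocyte genes had a median of 0.30, and 2 were more accessible in aged liver, Apoa1 (0.53) and Ahsg (0.57), which encode plasma proteins (2 of 10, against 4.48% of all promoter regions). Of the 68 regions in the windows of these genes 6 were more accessible, where 2.44% of all regions were, at Apoa1, Ahsg and Hnf4a, and 2 were less, where 3.3% were, at Tdo2 (-1.18) and Serpina1a (-0.73). The higher region at Hnf4a was at the promoter of Hnf4aos, and 1 of those at Apoa1 was at the promoter of Apoc3. The strongest promoter region of Hnf4a did not pass (0.25, edgeR adjusted p = 0.145). The summed level at the hepatocyte genes was 2972 to 3470 CPM in young and 3350 to 4445 CPM in aged libraries, and that at the sinusoidal endothelial genes 615 to 660 and 545 to 742 CPM. The 6 cholangiocyte regions had a median of -0.29, and 1 of them, in the window of Sox9, was less accessible, again where 3.3% of all regions were (-1.68, edgeR adjusted p = 0.0290). The 7 lymphocyte regions had a median of 0.04, and none of the lymphocyte or stellate regions passed the test. The part that the makeup of the tissue had in the members' values was not tested.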

How the data were processed

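Omni-ATAC libraries of liver nuclei from 3 young and 4 aged samples were used. The authors trimmed reads with cutadapt 1.13, aligned them to GRCm38 with Bowtie2 2.4.1, dropped low-quality, duplicate and mitochondrial reads, called peaks per library with MACS2 2.2.7, and deposited raw counts (featureCounts) in 55680 consensus regions found in at least 2 libraries. Coordinates are as in the deposited table.

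Regions were joined to GENCODE M21 with bedtools 2.31.1. All regions, and counts summed per protein-coding gene window, were tested with edgeR 4.0.16 in R 4.3.3 (TMM, quasi-likelihood test with age alone in the model, Benjamini-Hochberg adjustment at 0.05). No region was filtered out. Alternatives were DESeq2 1.42.0, limma 3.58.1 (voom), other scalings, filters, thinning to equal totals, omission of each library in turn, summing pairs of aged libraries and a replicate block. Replicates with the same number did not deviate together (correlations -0.119, 0.0565 and 0.0298), so the block was an alternative only. Libraries of the same age differed by more than sampling noise. The fit was tested on simulated data.

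Named were each gene's strongest promoter region, its strongest region outside other promoters and every called region, plus called promoters of the other lists. Further regions were named after their values were seen. The members and lists were chosen with earlier results of these data known.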

Additional observations from a re-analysis of the deposited data

How the results depend on the processing

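The direction of the members' median log2 fold change held under every alternative, from -0.33 to -0.06 against -0.17, and over the leave-one-out fits it ran from -0.32 (without aged replicate 4) to -0.09 (without aged replicate 1). Over all regions the median moved with the scaling too, from -0.153 with total counts (members -0.29) to 0.01 with offsets on GC content (members -0.1). The counts of called regions were small and moved. The count less accessible in aged liver, 1 in the main result, was 2 with total counts in regions, limma and aged 2 and 4 summed, 0 with offsets on mean abundance, 10 counts in every library (48 of the 59 regions tested, without the Erg intron), thinning, aged 1 and 2, 1 and 3 or 2 and 3 summed and an adjusted p under 0.01, and 0 to 7 with 1 library left out. The count more accessible, 0, was 1 with DESeq2, offsets on GC content, limma, and aged 1 and 2 or 2 and 4 summed, and 0 to 1 with 1 library left out. In each of these the region gained was the Gata4 promoter. Of the gene sums, 1 was less accessible with total counts in regions, offsets on GC content and aged 2 and 4 summed, and 0 to 3 with 1 library left out. Over all regions, 1.02% to 5.26% were less and 0.483% to 6.28% more accessible under these alternatives at an adjusted p under 0.05 (0.239% to 4.67% and 0.0988% to 2.93% with 1 library left out), and 0.554% to 5.68% of all gene sums were less accessible (0.111% to 4.24%). With the replicate block 6 regions and 3 gene sums were less accessible, where 4.66% of all regions and 3.58% of all gene sums were, and the Stab1 exon region passed (-0.92, edgeR adjusted p = 0.0199). Aged replicate 4 has no young library of its number, so the block takes it out of the comparison of ages. The members' median was -0.33 with the block and -0.32 without aged replicate 4. The numbers do not pair the samples, and 1 of the 3 young libraries correlated best with the aged library of its own number.

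Among the 14 named regions, 6 with fold changes between -0.17 and 0.10 turned sign under some alternative. At the internal start of Stab2 (0.05) it was -0.07 with total counts, -0.15 with offsets on mean abundance, -0.01 with aged 1 and 4 summed, -0.02 with aged 3 and 4 summed, -0.14 with the replicate block and -0.12 to 0.16 with 1 library left out. At the Kdr exon region at 75961835 (0.10) it was -0.02 with total counts, -0.12 with the replicate block and -0.10 to 0.21 with 1 library left out. At the Pecam1 intron region at 106674509 (-0.05) it was 0.04 with offsets on GC content and with aged 1 and 2 summed, and -0.32 to 0.10 with 1 library left out. At the Tek intron region at 94745927 (-0.17) it was 0.02 with offsets on mean abundance, 0.14 after thinning and -0.38 to 0.03 with 1 library left out. At the internal Erg start (0.05) it was -0.07 with total counts, -0.04 with limma, -0.02 and -0.01 with aged 1 and 4 or 3 and 4 summed, -0.27 with the replicate block and -0.28 to 0.24 with 1 library left out. At the strongest Erg region, in an intron at 95438968 (0.09), it was -0.04 with total counts, -0.05 with limma, -0.03 with aged 3 and 4 summed, -0.29 with the replicate block and -0.24 to 0.32 with 1 library left out. The cause of these turns was not tested. Of 307 values of named regions under alternatives, 260 kept their sign and side of the threshold, 8 passed it and 10 fell short of it, all of the latter at the Erg intron, which passed in the others that tested it. The median count in a member region was 30 in the library with the fewest. With every library thinned to the smallest total, 1.9% of all regions were less and 1.54% more accessible, against 3.3% and 2.44%. The Erg intron then fell short (edgeR adjusted p = 0.0531). Whether deeper libraries would give more calls was not tested.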
